A study of Mus musculus with 31 samples.

Results

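The comparison described here sets sorted CD4+ T cells of 2 tumor-bearing mice, VM231 and VM236, against sorted CD4+ T cells of 2 control mice, A1 and A3. These 4 libraries were chosen by genotype, cell source and tumor status from the 31 RNA sequencing libraries of the series. The tumor mice are labelled CD4-CreERT2Vav1Myo1f fl/wt, that is, they carry the CreERT2 recombinase under Cd4 control and a floxed Vav1-Myo1f fusion allele over a wild-type one. The controls are labelled CD4-CreERT2 (WT) and carry the same recombinase without the fusion allele, so the recombinase is common to all 4 mice. The strain is given as C57B/6 for all of them, and neither age nor time after induction is stated. Each side holds 2 mice, and the same 4 mice also gave whole-spleen libraries, as did a control (A2) and a tumor mouse (VM294) with no CD4+ library here. The CD4+ T cells of the CD4-Cre line, 4 tumors (CD4-CreVav1Myo1f fl/wt) and 3 controls (CD4-Cre(WT)), are used once, in a test of whether the tumor difference depends on the Cre line.

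VAV1 switches on Rac GTPases, as their nucleotide exchange factor, when a T cell is stimulated through its receptor. MYO1F belongs to the class I myosins, motors that link membranes to actin, and is found in blood cells. In the fusion of the 2 proteins the part of VAV1 that holds its activity in check is replaced by a stretch of MYO1F, and such fusions are known from human peripheral T cell lymphoma. CreERT2 is a recombinase that enters the nucleus when tamoxifen is present, so cutting can be started in the adult, and the Cd4 promoter confines its expression mainly to T cells and their precursors. A mature T cell carries one rearranged T cell receptor β chain and usually one α chain, so a population grown from a single cell shares its V genes, while an ordinary CD4+ population uses many.

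Counts assigned to genes came to 36879923 in VM231 and 33578473 in VM236, against 27158848 in A1 and 35742020 in A3. Levels are CPM, counts relative to the size of the library, scaled by TMM, which corrects for a few very abundant genes. The 2 tumors were less like each other than VM236 was like the controls. Across genes, the median absolute gap on the log2 scale was 0.642 between VM231 and VM236. It was 0.601 and 0.545 between VM231 and A1 and A3, 0.263 and 0.335 between VM236 and A1 and A3, and 0.263 between A1 and A3. VM231 had 14 Xist counts and 5391 counts of the Y-linked gene Ddx3y. The other 3 had 4600 (VM236), 3165 (A1) and 5302 (A3) Xist counts with at most 1 Ddx3y count, so VM231 differed from the others also in sex. A3 had high heat-shock transcripts, with Hspa1b at 83.6 CPM in VM231 and 29.0 CPM in VM236, against 16.4 CPM in A1 and 256 CPM in A3, and its spleen showed the same. The 10 mitochondrially encoded genes summed to 5410 CPM in VM231 and 8040 CPM in VM236, against 12300 CPM in A1 and 13500 CPM in A3. The part of sex, stress and mitochondrial content in the results was not tested.

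All 4 libraries carried T cell transcripts. The summed level of 19 genes that make up or mark the T cell receptor pathway was 12500 CPM in VM231 and 8570 CPM in VM236, against 9280 CPM in A1 and 8920 CPM in A3. Cd4, the co-receptor the sort was made on, stood at 424 and 530.1 CPM in VM231 and VM236, against 641 and 609 CPM in A1 and A3. Cd8a, which marks the other main T cell lineage, was at 2.76 and 13.4 CPM in VM231 and VM236, against 15.3 and 11.5 CPM in A1 and A3. The sorted samples were not free of other cells: B cell, macrophage and, in VM231, neutrophil transcripts were present, as given with the results they move with. In such bulk samples fewer cells of a type and less RNA per cell cannot be told apart.

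The gene-level counts do not separate the fusion transcript from the 2 normal genes. Vav1 (ENSMUSG00000034116, GRCm38 chr17:57279100-57328031, plus strand) had 238 CPM in VM231 and 299 CPM in VM236, against 281 CPM in A1 and 271 CPM in A3. The tumors enclosed the controls, and the log2 difference was -0.04 ± 0.27 (SE, n = 2 each). Myo1f (ENSMUSG00000024300, GRCm38 chr17:33555719-33607764, plus strand) had 519.5 CPM in VM231 and 305 CPM in VM236, against 214 CPM in A1 and 236 CPM in A3. Both tumors lay above both controls, VM231 by more than VM236. Of all 17341 genes tested, 5217 had tumors and controls that did not overlap, in 1 direction or the other. The log2 difference of 0.87 ± 0.35 (SE) for Myo1f did not pass edgeR's quasi-likelihood test with Benjamini-Hochberg adjustment over all genes, at an adjusted p of 0.988. Set against the controls alone, VM231 passed for Myo1f (log2 difference 1.22 ± 0.18, SE; edgeR adjusted p 0.00604) and VM236 did not (0.42 ± 0.18; adjusted p 0.443). Neutrophils and macrophages also express Myo1f. Summed neutrophil genes were 6720 CPM in VM231 and 113 CPM in VM236, against 75.2 CPM in A1 and 55.5 CPM in A3, and their part in the Myo1f values was not tested.

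With both tumors in one group the two-sided edgeR test called no gene among 17341. The share of all tested genes called was 0% in the higher direction and 0% in the lower direction, at an adjusted p under 0.05. DESeq2 on the same genes called 229 higher and 42 lower, and the unadjusted edgeR p was under 0.05 for 687 higher and 209 lower genes. The edgeR count depended on whether both tumors were in the fit. Leaving out VM236 gave 1902 higher and 1352 lower genes, and leaving out VM231 gave 265 higher and 109 lower. Leaving out A1 or A3 gave 0 in either direction by the adjusted edgeR test, with 235 higher and 75 lower without A1 and 381 higher and 53 lower without A3 at an unadjusted p under 0.05. What follows therefore gives the values both tumors share, then each tumor against the controls, then the genes on which they part.

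Transcripts higher in both tumors than in both controls included some macrophage genes, haemoglobin genes and a few interferon-induced genes. At a 2-fold limit, 375 genes (2.16% of all tested) were higher in both tumors than in both controls. Among the 20 macrophage and monocyte genes listed, 7 met the limit, and among the 11 tested erythroid genes 9 did. For 14 interferon-stimulated genes the count was 1, and no cell division, glycolysis or T cell identity gene met it. Ifi44, an interferon-induced gene, is the clearest single case, at 86.1 and 68.0 CPM in VM231 and VM236, against 2.52 and 4.64 CPM in A1 and A3. The tumors stood far from the controls, by 4.42 ± 0.43 on the log2 scale (SE), yet the edgeR adjusted p over all genes was 0.842. Its neighbour in name Ifi44l, chosen after its values were seen, had 28.4 and 36.8 CPM in VM231 and VM236, against 0.0371 CPM in A1 and 0 CPM in A3.

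Gbp2b, a guanylate-binding protein induced by interferon, had 237 and 87.6 CPM in VM231 and VM236, against 7.63 and 8.21 CPM in A1 and A3. Both tumors were well above the controls, VM231 the most, with a log2 difference of 4.36 ± 0.57 (SE; edgeR adjusted p 0.842). Gbp2b and Ifi44 lie on the same chromosome, at GRCm38 chr3:142594847-142619179 and chr3:151730922-151749960. The part of their position in the shared difference was not tested. Il18bp, which encodes a soluble protein that binds interleukin 18, had 41.6 and 30.0 CPM in VM231 and VM236, against 8.27 and 7.93 CPM in A1 and A3. Lpl, the lipoprotein lipase that macrophages and fat cells make, had 34.0 and 60.1 CPM in VM231 and VM236, against 1.93 and 3.46 CPM in A1 and A3. VM236 was the higher of the tumors for Lpl and for Tbxas1, the thromboxane synthase, which had 22.5 and 52.2 CPM in VM231 and VM236, against 3.19 and 4.30 CPM in A1 and A3. Both tumors again lay well above both controls. Pla2g7, a secreted enzyme that inactivates platelet-activating factor, had 161 and 114 CPM in VM231 and VM236, against 14.6 and 25.4 CPM in A1 and A3. Fpr1, the formyl peptide receptor of neutrophils and monocytes, had 25.4 and 37.2 CPM in VM231 and VM236, against 1.45 and 3.57 CPM in A1 and A3. In each of these genes the lower tumor exceeded the higher control at least 2-fold. The α-globin gene Hba-a1 had 46.2 and 47.1 CPM in VM231 and VM236, against 3.26 and 5.40 CPM in A1 and A3, and its near-identical copy Hba-a2 moved with it, so reads may be split between them.

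The 12 most distinct higher genes, named by a rule stated with the methods, also hold the β-globin gene Hbb-bs, Cela1, Rab3il1 and Tnfaip2. All 12 had an adjusted p of 0.842 with both tumors in the group, and each passed in VM231 alone and in VM236 alone. The tumors share their controls in those fits, so the overlap of the calls is not evidence of its own. The marker lists that move with these genes are as follows. The 20 macrophage genes summed to 5070 CPM in VM231 and 7040 CPM in VM236, against 866 CPM in A1 and 1560 CPM in A3, and none was at 0 in any library. Much of the VM231 sum was Lyz2, which neutrophils also express. Lyz2 had 2668 CPM in VM231 and 660 CPM in VM236, against 380 CPM in A1 and 634 CPM in A3. The 11 tested erythroid genes summed to 173 CPM in VM231 and 160 CPM in VM236, against 42.1 CPM in A1 and 46.2 CPM in A3, with Epb42 at 0 in both controls and Slc4a1 at 0 in A3. Much of the control sums was Tfrc, with 62.9 CPM in VM231 and 28.5 CPM in VM236, against 26.4 CPM in A1 and 29.0 CPM in A3. Gata1 went the other way in VM231, with a log2 difference from the controls of -3.47 there and 0.52 in VM236. The part of these lists in the shared genes was not tested.

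The transcripts lower in both tumors included many of B cells and antibody-secreting cells. At the 2-fold limit, 162 genes (0.934% of all tested) were lower in both tumors than in both controls. Of 13 B cell genes 7 met it, and of 8 plasma cell genes 2 did. Mzb1, an endoplasmic reticulum chaperone of B and plasma cells, had 128 and 95.3 CPM in VM231 and VM236, against 249.9 and 289 CPM in A1 and A3. Pou2af1, a B cell transcriptional coactivator, had 34.5 and 73.5 CPM in VM231 and VM236, against 175 and 157 CPM in A1 and A3. Bhlha15, a transcription factor of secretory cells such as plasma cells, had 5.16 and 4.38 CPM in VM231 and VM236, against 17.3 and 17.7 CPM in A1 and A3. These 3 genes had both tumors below both controls, with edgeR adjusted p-values of 0.892, 0.907 and 0.842 in turn.

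Chst1, a sulfotransferase that adds sulfate to the sugar chains of glycoproteins, had the lowest p of the 12 named lower genes. It had 3.62 and 3.46 CPM in VM231 and VM236, against 26.8 and 18.7 CPM in A1 and A3, a log2 difference of -2.68 ± 0.38 (SE; edgeR adjusted p 0.842). The tumors were nearly alike and lay far below both controls. Sostdc1, a secreted antagonist of BMP and Wnt signals, had 32.5 and 35.1 CPM in VM231 and VM236, against 82.2 and 114 CPM in A1 and A3. Angptl2 had 75.2 and 76.4 CPM in VM231 and VM236, against 142 and 148 CPM in A1 and A3. The 12 named lower genes further hold Ly6d, Bcar3, Cnn3, Hs3st1, Hyou1 and Rnase6, and their adjusted p-values ran between 0.842 and 0.916. Of the 24 named genes, higher and lower together, 17 passed DESeq2.

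**Figure D1:**
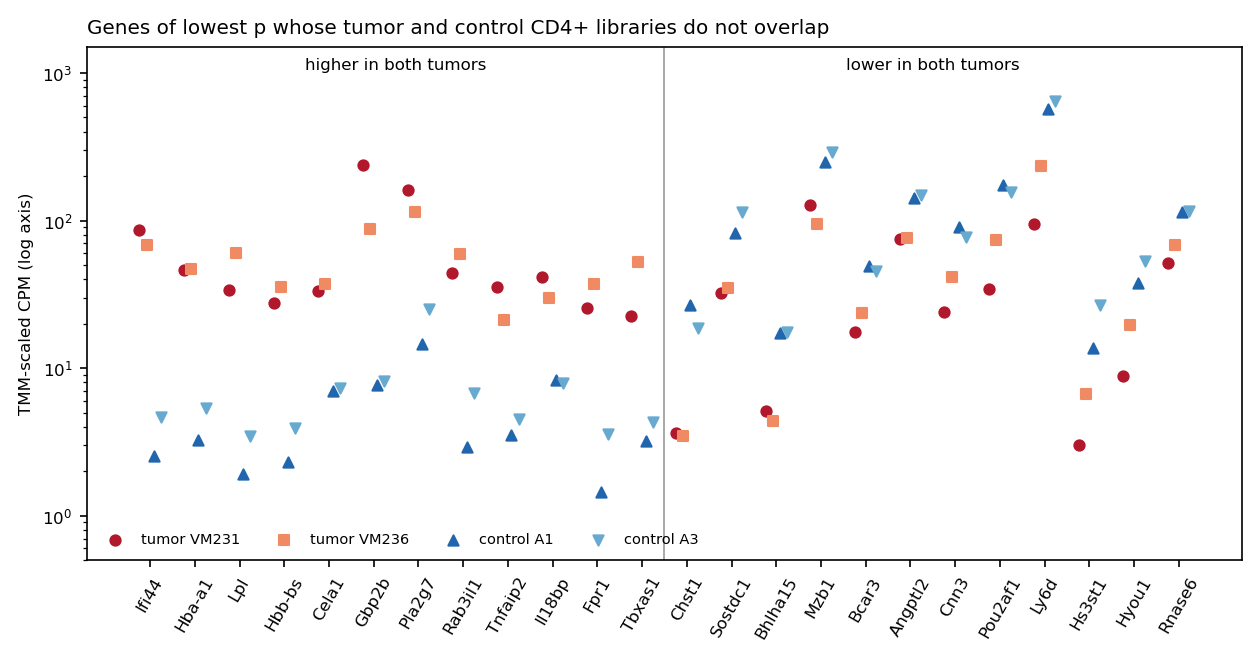
Levels in CPM on a log axis of the 12 named genes higher and the 12 named genes lower in both tumors, one point per library (VM231 and VM236, then A1 and A3). Ifi44 stands at 86.1 and 68.0 CPM in the tumors, against 2.52 and 4.64 CPM in the controls, and tumor and control points do not overlap in any of the 24 genes because the rule that named them required it.

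The B cell and plasma cell lists moved with the lower genes. The 13 B cell genes summed to 572 CPM in VM231 and 1900 CPM in VM236, against 3760 CPM in A1 and 3560 CPM in A3. The 8 plasma cell genes summed to 3950 CPM in VM231 and 1640 CPM in VM236, against 7420 CPM in A1 and 7410 CPM in A3, and no member of either list was at 0 in any library. VM231 had the lowest B cell sum and VM236 the lowest plasma cell sum. Immunoglobulin κ V genes together gave 12400 CPM in VM231 and 4490 CPM in VM236, against 16800 CPM in A1 and 15000 CPM in A3. Their part in the lower genes was not tested.

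Each tumor was then set on its own against A1 and A3 with the same edgeR test. In these fits the spread comes from the 2 controls, and the lone tumor library is assumed to vary like them. VM231 differed over a far broader range of genes than VM236. Against the controls 1902 genes rose in VM231 (10.4% of 18263 tested) and 1352 fell (7.4%), while in VM236 265 rose (1.44% of 18351) and 109 fell (0.594%). A plain 2-fold limit against both controls gives the same order. By that limit 1534 genes were higher (8.85%) and 1981 lower (11.4%) in VM231, and 866 were higher (4.99%) and 521 lower (3%) in VM236. The 2 fits share their controls, so their results are given side by side and not as agreement. The list counts that follow stand beside these shares of all genes tested. In VM236 the shares are so low that a short list without a call is near them.

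**Figure D2:**
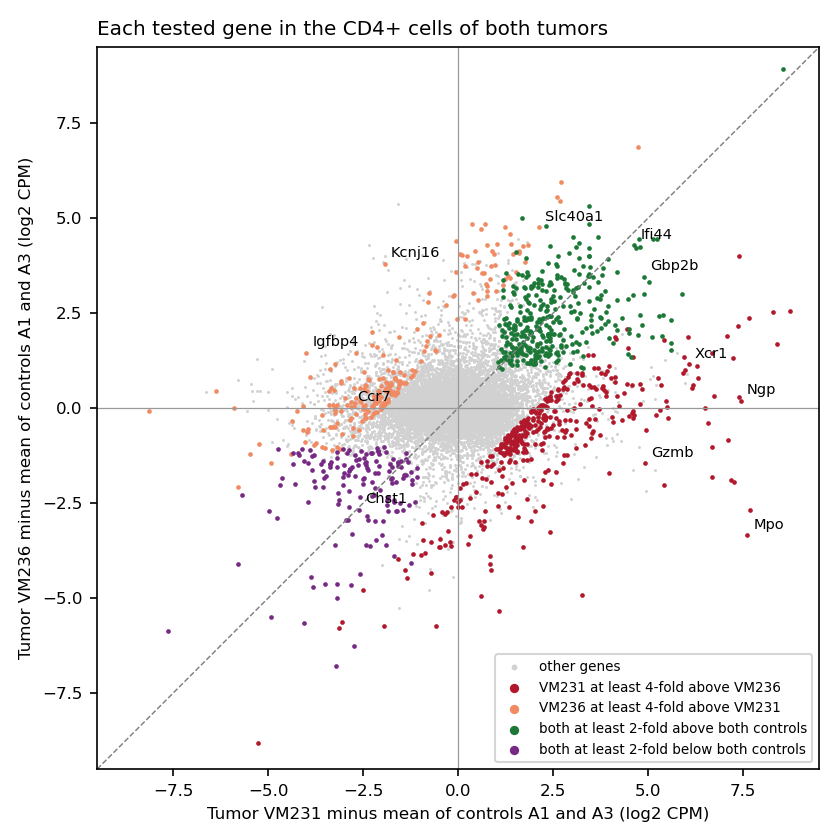
Log2 difference from the mean of the controls for each tested gene, VM231 across and VM236 upward. Colours mark genes at least 4-fold apart between the tumors and, of the rest, those among the 375 genes 2-fold higher and 162 genes 2-fold lower in both. Shared genes that also part take the colour of the parting genes, so the shared colours lie nearer the diagonal by that rule. Mpo, Ngp and Gzmb lie far to the right, high in VM231 alone.

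Transcripts of cell division genes set the tumors apart, and which cells carried them was not tested. Of 20 genes of mitosis and the spindle, 18 rose in VM231 and none fell, and none passed in VM236 in either direction. Ccnb1, the cyclin that drives entry into mitosis, had 198 CPM in VM231 and 27.2 CPM in VM236, against 53.8 CPM in A1 and 69.0 CPM in A3. VM231 was the highest of the 4 and VM236 the lowest, with log2 differences from the controls of 1.71 ± 0.21 in VM231 (SE; edgeR adjusted p 0.00343) and -1.19 ± 0.24 in VM236 (adjusted p 0.0737). Mki67, the proliferation marker, had 92.9 CPM in VM231 and 21.4 CPM in VM236, against 36.1 CPM in A1 and 49.9 CPM in A3, again with VM231 above and VM236 below both controls. Top2a, the topoisomerase that untangles chromosomes, repeated that order at 149 CPM in VM231 and 47.0 CPM in VM236, against 61.3 CPM in A1 and 83.1 CPM in A3. Over the 20 genes the median log2 difference was 1.32 in VM231 and -1 in VM236, beside -0.03 and 0.00 over all genes tested. The median of A1 minus A3 in the same genes was -0.37 on the log2 scale.

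The 15 genes of DNA replication divided the tumors in the same way, with 12 higher in VM231 by the test and none passing in VM236. Rrm2, a subunit of the enzyme that makes deoxyribonucleotides, had 345 CPM in VM231 and 58.9 CPM in VM236, against 107 CPM in A1 and 140.1 CPM in A3. Cdc6, which loads the replicative helicase onto origins, had 55.3 CPM in VM231 and 8.63 CPM in VM236, against 15.7 CPM in A1 and 17.6 CPM in A3. In both genes VM231 was the highest library and VM236 the lowest. The promoters of Ccnb2 and Plk1, from the mitosis and spindle list, are shown with the CCAAT box, a motif bound by the factor NF-Y. Each runs 250 bases before to 50 bases after the annotated start in RefSeq on GRCm38.p6, written 5′ to 3′ on the gene's strand. Capitals mark CCAAT or its reverse complement ATTGG.
Ccnb2 (chr9:70421505-70421804, minus strand): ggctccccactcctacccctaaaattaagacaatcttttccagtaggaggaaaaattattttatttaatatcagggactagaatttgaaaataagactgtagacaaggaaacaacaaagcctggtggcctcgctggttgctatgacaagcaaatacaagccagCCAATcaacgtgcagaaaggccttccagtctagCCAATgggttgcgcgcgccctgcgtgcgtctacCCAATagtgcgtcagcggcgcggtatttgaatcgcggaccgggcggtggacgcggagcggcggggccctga
Plk1 (chr7:122159185-122159484, plus strand): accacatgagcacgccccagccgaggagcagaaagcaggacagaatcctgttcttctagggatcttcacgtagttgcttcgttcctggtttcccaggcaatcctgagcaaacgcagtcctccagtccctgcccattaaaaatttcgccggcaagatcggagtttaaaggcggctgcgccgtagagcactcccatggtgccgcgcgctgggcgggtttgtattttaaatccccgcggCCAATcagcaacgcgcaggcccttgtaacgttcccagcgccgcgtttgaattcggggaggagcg
The Ccnb2 window holds 3 matches and the Plk1 window 1. Of the 20 listed mitosis and spindle genes 16 had a promoter sequence to search. Of these, 14 (87.5%) hold CCAAT on either strand, against 37.4% of all 32851 promoters. The motif TTTGAA, the core of the CHR element of cell cycle genes, is in 11 of the 16 (68.8%), against 17.9% of all, again on either strand. Ccnb2, a mitotic cyclin, had 112 CPM in VM231 and 19.5 CPM in VM236, against 33.5 CPM in A1 and 43.3 CPM in A3. Plk1, a mitotic kinase, had 84.7 CPM in VM231 and 12.8 CPM in VM236, against 31.0 CPM in A1 and 35.2 CPM in A3, and both genes were again highest in VM231 and lowest in VM236.

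Most glycolysis genes were higher in VM231 as well. Of 16 genes of glycolysis, lactate transport and the hypoxia response 11 rose in VM231 and none passed in VM236. Pkm, the pyruvate kinase gene, had 3031 CPM in VM231 and 829 CPM in VM236, against 888 CPM in A1 and 1064 CPM in A3. Pgk1, which encodes phosphoglycerate kinase, had 406 CPM in VM231 and 87.6 CPM in VM236, against 100.2 CPM in A1 and 131 CPM in A3. For both genes VM236 was slightly below the controls and VM231 stood alone above them. Vegfa, the endothelial growth factor induced by low oxygen, was scarce outside VM231, at 21.2 CPM in VM231 and 0.757 CPM in VM236, against 1.30 CPM in A1 and 0.534 CPM in A3.

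Interferon-stimulated genes were broadly higher in VM231, and few of them were in VM236. Of the 14 listed genes 13 rose in VM231, and Ifi44 was the one that rose in VM236. Gbp2b and Ifi44l, which are not in the list, were also above both controls in VM236, by the values given with the shared genes. Ifit1, an antiviral protein that binds foreign RNA ends, had 192 CPM in VM231 and 38.9 CPM in VM236, against 27.2 CPM in A1 and 36.2 CPM in A3. Its log2 difference from the controls was 2.61 ± 0.22 in VM231 (SE; edgeR adjusted p 0.000993) and 0.28 ± 0.25 in VM236 (adjusted p 0.791). Ifit3 had 168 CPM in VM231 and 39.4 CPM in VM236, against 19.7 CPM in A1 and 30.8 CPM in A3, and Usp18, which dampens the interferon receptor, followed the same pattern. The list median on the log2 scale was 1.76 in VM231 and 0.34 in VM236, and -0.43 for A1 minus A3.

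The promoters of Gbp2b, which both tumors share, and Ifit1, on which they part, are shown with the interferon-stimulated response element in the form GAAA, any 2 bases, GAAA. They cover the same window in RefSeq on GRCm38.p6. Capitals mark the motif or its reverse complement.
Gbp2b (chr3:142594597-142594896, plus strand): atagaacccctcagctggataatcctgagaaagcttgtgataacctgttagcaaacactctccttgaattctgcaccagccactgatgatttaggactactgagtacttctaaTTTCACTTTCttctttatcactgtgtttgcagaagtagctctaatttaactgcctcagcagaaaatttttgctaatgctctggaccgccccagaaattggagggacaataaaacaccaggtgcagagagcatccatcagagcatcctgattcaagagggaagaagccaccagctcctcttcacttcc
Ifit1 (chr19:34640639-34640938, plus strand): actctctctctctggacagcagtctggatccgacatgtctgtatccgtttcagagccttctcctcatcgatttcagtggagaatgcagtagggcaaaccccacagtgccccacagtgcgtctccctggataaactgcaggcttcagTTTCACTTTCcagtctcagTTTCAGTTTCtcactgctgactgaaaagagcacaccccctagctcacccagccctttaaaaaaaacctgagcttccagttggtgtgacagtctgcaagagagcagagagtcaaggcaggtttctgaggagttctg
The Gbp2b window holds 1 match, on the minus strand, and the Ifit1 window holds 2. The motif is in 7 of the 10 interferon-list promoters in the table (70%), against 3.44% of all 32851 promoters on either strand and 1 of 16 cell division promoters. Both promoters hold the motif. In VM236 Gbp2b was at 87.6 CPM beside control levels of 7.63 and 8.21 CPM, and Ifit1 was at 38.9 CPM beside 27.2 and 36.2 CPM. The part of the motif in these levels was not tested.

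**Figure D3:**
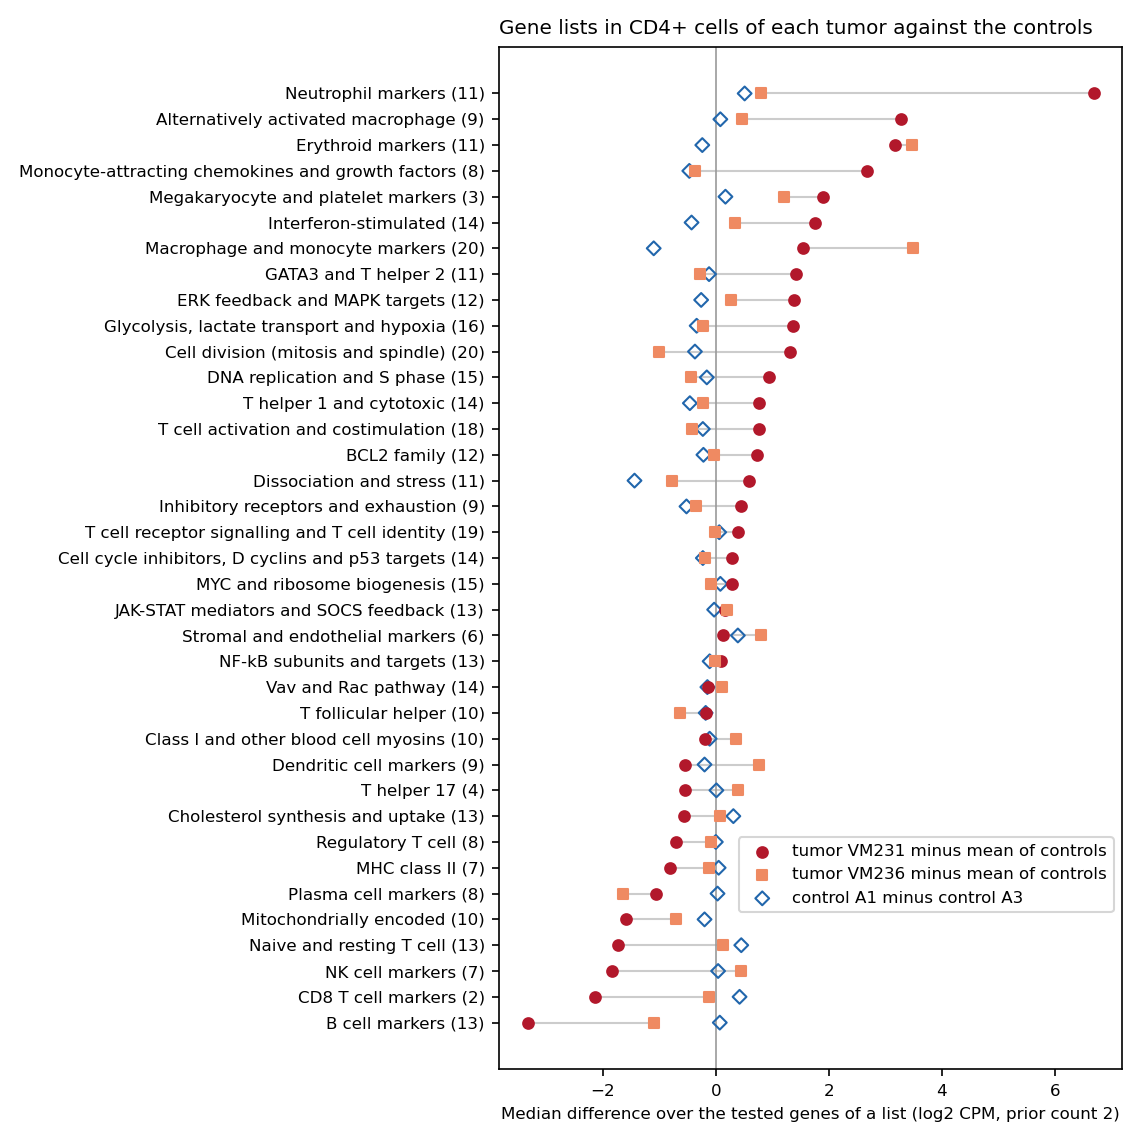
Median log2 difference from the control mean of each gene list, in VM231, in VM236 and, as the control spread, for A1 minus A3. Cell division lies at 1.32 in VM231 and -1 in VM236, naive T cell genes at -1.73 in VM231 and 0.13 in VM236, and macrophage genes at 1.54 in VM231 and 3.49 in VM236.

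One β and one α V gene took most receptor counts of VM231, and no V gene did so in VM236. Trbv20, a V gene of the T cell receptor β chain, took 66.4% of 16887 Trbv counts in VM231 (65.7 to 67.1%, exact Clopper-Pearson 95% interval, counting error only). It took 4.21% in VM236 (3.96 to 4.46%), against 2.89% in A1 (2.67 to 3.12%) and 2.98% in A3 (2.78 to 3.19%). Trav13-1, a V gene of the α chain, took 52.8% of 13873 Trav counts in VM231 (51.9 to 53.6%) and 2.87% in VM236, against 2.92% in A1 and 3.24% in A3. VM231 thus stood alone for both genes, and VM236 lay near the controls. The most counted β V gene of VM236 was Trbv13-2 at 15.5% of Trbv counts, against a highest share of 12.2% (Trbv13-2) in A1 and 14.6% (Trbv3) in A3. In the edgeR fit of VM231 alone Trbv20 rose by 3.91 ± 0.18 on the log2 scale (SE; adjusted p 9.06e-05) and Trav13-1 by 4.07 ± 0.19 (adjusted p 9.06e-05).

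The last bases of these V genes are shown because they are the part next to the junction that marks a T cell clone, with Trbv13-2, the most counted β gene of VM236, beside them. They are read from GENCODE M21 transcripts on GRCm38. Capitals mark the last in-frame TGT codon, the cysteine at which the junction starts.
Trbv20 (chr6:41188678-41188977, plus strand): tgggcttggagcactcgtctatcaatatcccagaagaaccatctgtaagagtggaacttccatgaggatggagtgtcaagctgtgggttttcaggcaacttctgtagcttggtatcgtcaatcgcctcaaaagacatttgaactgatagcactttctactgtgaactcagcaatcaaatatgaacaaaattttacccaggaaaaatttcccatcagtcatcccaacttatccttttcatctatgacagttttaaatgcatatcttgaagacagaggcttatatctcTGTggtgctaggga
Trav13-1 (chr14:53545247-53545525, plus strand): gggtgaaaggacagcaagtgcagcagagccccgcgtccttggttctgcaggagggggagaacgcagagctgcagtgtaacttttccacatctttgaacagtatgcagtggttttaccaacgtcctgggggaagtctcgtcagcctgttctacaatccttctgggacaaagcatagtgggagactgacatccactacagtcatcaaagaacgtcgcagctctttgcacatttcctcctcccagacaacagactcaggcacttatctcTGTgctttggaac
Trbv13-2 (chr6:41121539-41121832, plus strand): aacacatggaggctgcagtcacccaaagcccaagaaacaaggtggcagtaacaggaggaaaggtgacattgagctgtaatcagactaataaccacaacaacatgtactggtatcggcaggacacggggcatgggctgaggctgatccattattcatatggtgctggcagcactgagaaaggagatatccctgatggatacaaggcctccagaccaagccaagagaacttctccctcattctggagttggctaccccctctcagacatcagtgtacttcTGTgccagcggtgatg
Trav13-1 has copies in the duplicated α locus. One of them, Trav13n-1, is 96.1% identical over 331 bases, so reads of the copies may be exchanged, and Trav13d-1, which differs in length, was not compared. The deposited counts give V genes but not the junctions, so the number of clones was not analysed here.

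**Figure D4:**
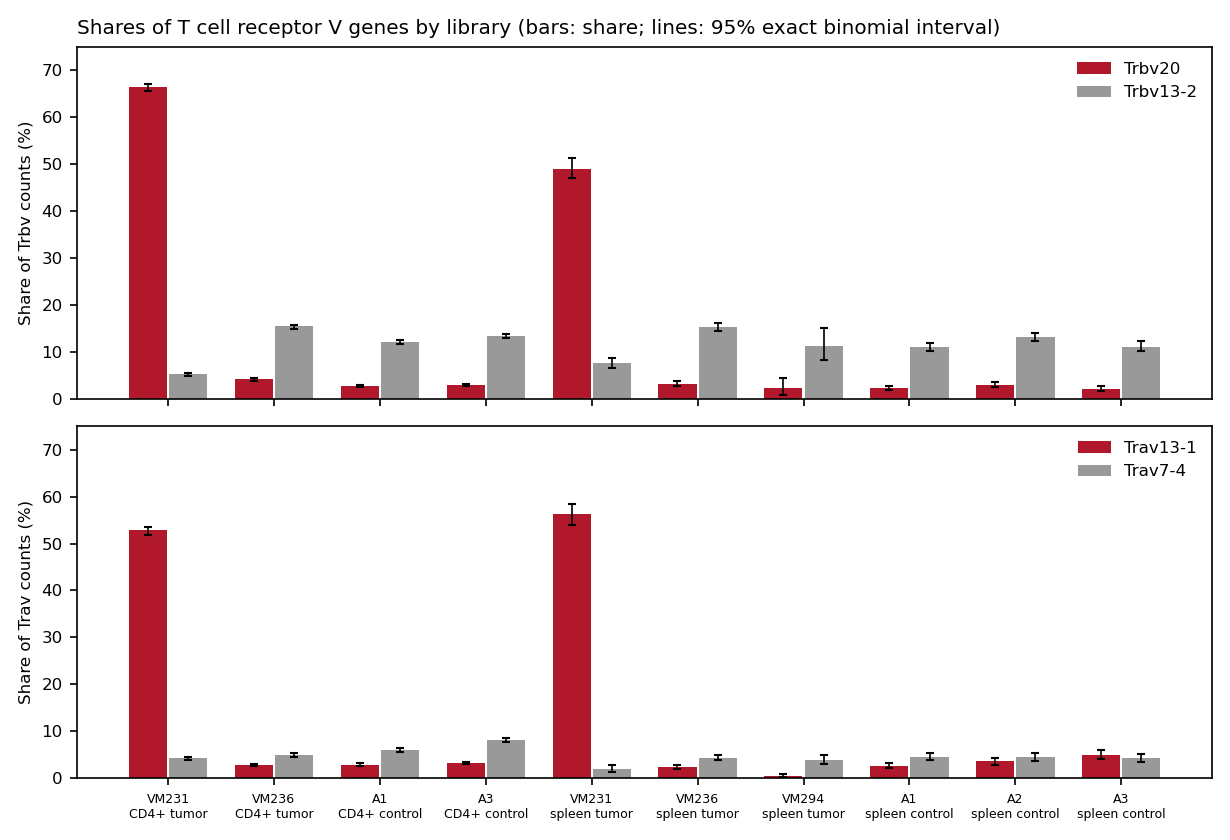
Share of Trbv counts taken by Trbv20 and Trbv13-2 (upper plot) and of Trav counts taken by Trav13-1 and Trav7-4 (lower plot), in percent with exact 95% binomial intervals, in the CD4+ libraries and the spleens, tumors left of controls in each tissue. Trbv20 takes 66.4% of Trbv counts in the CD4+ cells and 49.1% in the spleen of VM231, and at most 4.21% in the CD4+ cells of VM236, A1 and A3.

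The same mouse's spleen gave the same V genes. In the VM231 spleen Trbv20 took 49.1% of 2098 Trbv counts (47 to 51.3%) and Trav13-1 took 56.2% of 1810 Trav counts (53.9 to 58.5%). In the VM236 spleen the most counted β gene was again Trbv13-2, at 15.4% of 6005 counts (14.5 to 16.3%). The highest β shares in the control spleens were 11.1% (A1), 13.2% (A2) and 12.5% (A3). The tumor mouse VM294, known here from its spleen, had Trbv13-1 at 22.3% of 350 Trbv counts (18 to 27%) and Trav15-2-dv6-2 at 22.1% of 1596 Trav counts (20 to 24.2%).

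VM231 held fewer transcripts of naive and resting T cell genes and more of part of the activation and effector genes, while few of either passed in VM236. Of 13 naive and resting T cell genes 11 fell in VM231 and none passed in VM236. Ccr7, the receptor that guides T cells into lymph nodes, had 60 CPM in VM231 and 428 CPM in VM236, against 529 CPM in A1 and 336 CPM in A3. Klf2, a transcription factor of resting T cells, had 62.4 CPM in VM231 and 263 CPM in VM236, against 254 CPM in A1 and 253 CPM in A3. In both genes VM231 alone was low.

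Activation genes and part of the T helper 1 and T helper 2 genes rose in VM231. Of 18 genes of activation and costimulation 10 rose and 2 fell. Of the T helper 1 and cytotoxic genes 7 of 14 rose, and of the GATA3 and T helper 2 genes 4 of 12, against 10.4% of all genes tested in VM231. The other T helper lists were split or lower there, with 1 higher and 1 lower of 4 T helper 17 genes, 2 higher and 2 lower of 10 T follicular helper genes, and none higher and 3 lower of 8 regulatory T cell genes. Gzmb, the cytotoxic protease granzyme B, had 695 CPM in VM231 and 8.30 CPM in VM236, against 13.8 CPM in A1 and 37.6 CPM in A3, and its log2 difference from the controls was 4.77 ± 0.50 in VM231 (SE; edgeR adjusted p 0.00209). Tnfrsf4, the costimulatory receptor OX40, had 1699 CPM in VM231 and 254 CPM in VM236, against 461 CPM in A1 and 509.5 CPM in A3. Both genes were lower in VM236 than in either control, though neither passed there.

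Cytokine genes of type 2 helper cells were among those that rose in VM231. Il5 had 45.5 CPM in VM231 and 0.784 CPM in VM236, against 0.185 CPM in A1 and 0.0281 CPM in A3. Il4 had 31.5 CPM in VM231 and 6.14 CPM in VM236, against 3.67 CPM in A1 and 5 CPM in A3. Ccr8, a chemokine receptor of type 2 helper and regulatory T cells, had 306 CPM in VM231 and 23.8 CPM in VM236, against 29.8 CPM in A1 and 51.1 CPM in A3. The transcription factor Gata3 itself did not follow them, at 124 CPM in VM231 and 84.3 CPM in VM236, against 98.3 CPM in A1 and 107 CPM in A3, and its log2 difference with both tumors grouped was 0.02 ± 0.29 (SE). Foxp3, which defines regulatory T cells, fell in VM231 and had 41.5 CPM there and 118 CPM in VM236, against 139.7 CPM in A1 and 131 CPM in A3. Pparg, a nuclear receptor that type 2 helper cells and macrophages express, was the list's one gene that rose in both fits, with 29.9 CPM in VM231 and 19.4 CPM in VM236, against 6.34 CPM in A1 and 6.49 CPM in A3. No inhibitory receptor gene of 9 passed in either tumor. Of the 13 T helper 2 genes on the list 12 entered the fit of VM231 and 11 the fit with both tumors.

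Survival and signalling lists held small numbers of calls, which stand beside 10.4% higher and 7.4% lower of all genes tested in VM231. Bcl2l1, whose product BCL-XL blocks cell death, had 141 CPM in VM231 and 31.8 CPM in VM236, against 30.8 CPM in A1 and 29.2 CPM in A3, and rose in VM231 by 2.25 ± 0.18 on the log2 scale (SE; edgeR adjusted p 0.000859). Cdkn1a, the cell cycle inhibitor p21, had 103 CPM in VM231 and 4.73 CPM in VM236, against 6.38 CPM in A1 and 9.45 CPM in A3, so it was high in the same library as the cell division genes. In the BCL2 family 4 of 12 genes rose and 2 fell in VM231. Of 13 tested genes of ERK feedback 5 rose there, and 4 of 13 JAK-STAT genes did. Of the 14 genes of the Vav and Rac pathway none rose and 3 fell in VM231, and 1, Pak1, rose in VM236. Pak1, a kinase that Rac activates, had 10.5 CPM in VM231 and 33.2 CPM in VM236, against 9.67 CPM in A1 and 11.6 CPM in A3. Of 10 blood cell myosins 2 rose and 2 fell in VM231. T cell receptor genes were split, with 7 of 19 higher and 3 lower in VM231 and none passing in VM236. Cd6, a receptor on T cells, had 2139 CPM in VM231 and 842 CPM in VM236, against 748 CPM in A1 and 632 CPM in A3, while Cd247, the ζ chain of the receptor complex, had 162 CPM in VM231 and 264 CPM in VM236, against 430.3 CPM in A1 and 459 CPM in A3.

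Neutrophil granule genes set VM231 apart from the other 3 libraries. All 11 listed neutrophil genes rose in VM231 and none passed in VM236. Ngp, a granule protein, had 3081 CPM in VM231 and 20.3 CPM in VM236, against 23.3 CPM in A1 and 13.5 CPM in A3. Mpo, the myeloperoxidase of immature neutrophils, had 329.7 CPM in VM231 and 0.108 CPM in VM236, against 1.37 CPM in A1 and 1.97 CPM in A3. The list summed to 6720 CPM in VM231 and 113 CPM in VM236, against 75.2 CPM in A1 and 55.5 CPM in A3, with no member at 0. In the spleens it summed to 111000 CPM in VM231 and 2940 CPM in VM236, against 925 CPM in A1, 611 CPM in A2 and 431 CPM in A3. The VM231 library thus carried myeloid transcripts beside its T cell transcripts, and their part in its other differences was not tested. Chil3 and Arg1, known from alternatively activated macrophages, were also high there. Chil3 had 3086 CPM in VM231 and 22.5 CPM in VM236, against 14.6 CPM in A1 and 23.0 CPM in A3. Of the 9 tested genes listed for such macrophages, 6 were at least 2-fold above both controls in VM231, against 8.85% of all genes tested. Pdcd1lg2 of that list was near the controls, at 18.4 CPM in VM231, against 15.3 CPM in A1 and 17.2 CPM in A3.

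Among the gene lists, that of macrophages and monocytes held the most calls in VM236. Of the 20 macrophage and monocyte genes 15 rose in VM236 and 11 in VM231, and the list's median log2 difference was 3.49 in VM236 and 1.54 in VM231, and -1.10 for A1 minus A3. Slc40a1, the iron exporter ferroportin, had 233 CPM in VM231 and 1451 CPM in VM236, against 34.9 CPM in A1 and 82.0 CPM in A3. Its log2 difference from the controls was 2.01 ± 0.42 in VM231 (SE; edgeR adjusted p 0.0219) and 4.62 ± 0.44 in VM236 (adjusted p 0.0079). Hmox1, the haem oxygenase, had 32.8 CPM in VM231 and 440.2 CPM in VM236, against 19.8 CPM in A1 and 38.7 CPM in A3. Vcam1, an adhesion molecule of red pulp macrophages, had 96.5 CPM in VM231 and 1130 CPM in VM236, against 31.6 CPM in A1 and 104 CPM in A3. For Hmox1 and Vcam1 VM231 lay within or near the controls, and VM236 stood alone.

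Spic, the transcription factor that red pulp macrophages depend on, had 43.8 CPM in VM231 and 194 CPM in VM236, against 15.2 CPM in A1 and 22.4 CPM in A3. Csf1r, the receptor for macrophage colony-stimulating factor, had 190.2 CPM in VM231 and 858 CPM in VM236, against 55.5 CPM in A1 and 108 CPM in A3. Mrc1, the mannose receptor, had 17.9 CPM in VM231 and 175 CPM in VM236, against 5.63 CPM in A1 and 13.6 CPM in A3. All 3 rose in VM236, and Spic rose in VM231 too. The complement gene C1qa, which macrophages make, had 73.5 CPM in VM231 and 200.4 CPM in VM236, against 7.67 CPM in A1 and 26.5 CPM in A3. Ly6c2 and Ccr2, chosen after their values were seen, ran the other way between the tumors. So did Lyz2, with 2668 CPM in VM231 and 660 CPM in VM236, against 380 CPM in A1 and 634 CPM in A3. Ly6c2, a surface protein of monocytes, had 486 CPM in VM231 and 65.0 CPM in VM236, against 89.1 CPM in A1 and 110.4 CPM in A3, and Ccr2, which monocytes use to leave the bone marrow and activated T cells also carry, had 311 CPM in VM231 and 93.7 CPM in VM236, against 81.6 CPM in A1 and 80.5 CPM in A3.

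**Figure D5:**
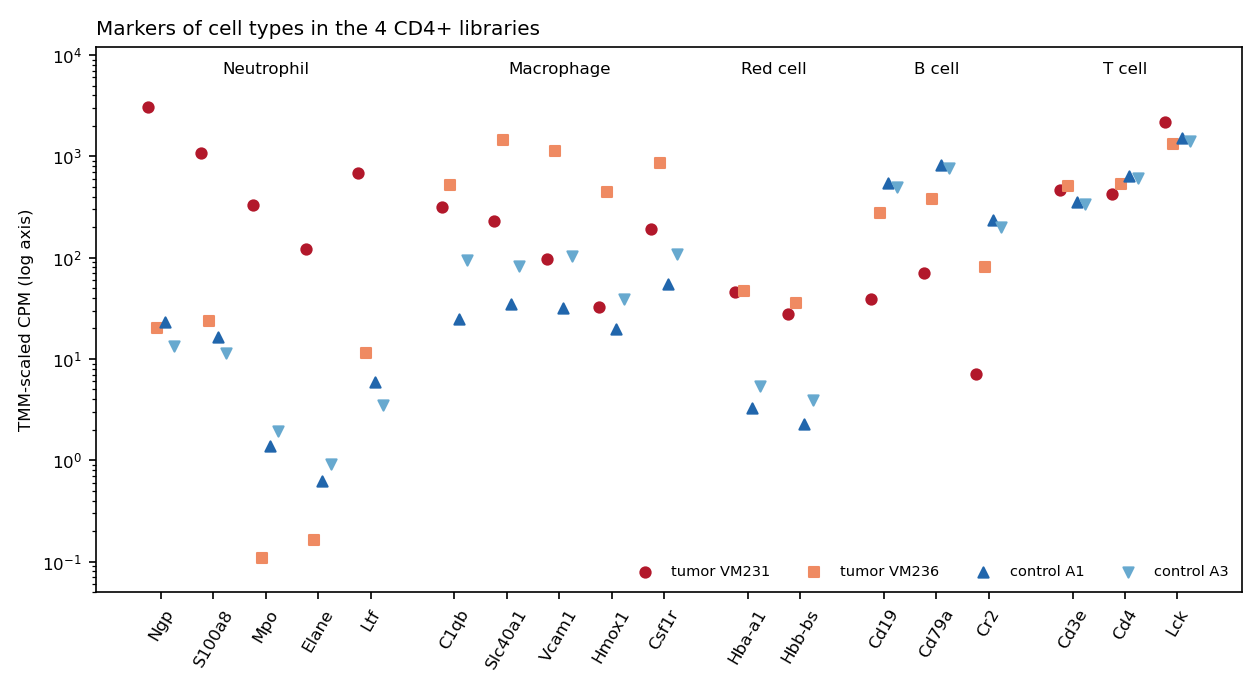
Levels in CPM, on a log axis, of examples of neutrophil, macrophage, red cell, B cell and T cell markers, one point per CD4+ library (VM231, VM236, A1, A3). The neutrophil gene Ngp stands at 3081 CPM in VM231 and 20.3 CPM in VM236, and the macrophage gene Slc40a1 at 233 CPM in VM231 and 1451 CPM in VM236, while Cd4 lies between 424 and 641 CPM in all 4.

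The T cell lists held few calls in VM236, where few of all genes tested passed. None of the lists for cell division, replication, glycolysis, naive T cells, activation, regulatory T cells and the T cell receptor pathway held a gene that passed there, and the T cell identity median was -0.01 on the log2 scale, beside 0.40 in VM231. The B cell genes that fell in VM236 numbered 4, and the plasma cell genes 4, against 12 and 5 in VM231. Cr2, a complement receptor of B cells, had 7.08 CPM in VM231 and 80.2 CPM in VM236, against 234 CPM in A1 and 201 CPM in A3. Jchain, which joins antibody chains in plasma cells, had 2889 CPM in VM231 and 1142 CPM in VM236, against 6303 CPM in A1 and 6294 CPM in A3. B cell genes were thus lowest in VM231 and Jchain lowest in VM236. For other lists the VM231 fit called 8 higher and 1 lower of 10 monocyte-attracting chemokines and growth factors, 1 higher and 6 lower of 7 MHC class II genes and 10 lower of 10 mitochondrially encoded genes, and VM236 none in these lists.

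Genes at least 4-fold apart between the tumors, with a mean of at least 8 CPM over both, numbered 394 with VM231 above VM236 (2.27% of all tested) and 221 with VM236 above VM231 (1.27%). The same rule between the controls gave 13 genes with A1 above A3 (0.075%) and 28 with A3 above A1 (0.161%). This count has no test, since each side is 1 library. Of the 394 genes 307 had VM231 at least 2-fold above both controls, 103 had VM236 at least 2-fold below them and 38 had both, and 96 of the 394 were immunoglobulin segments. Of the 221 genes 152 had VM231 at least 2-fold below both controls, 71 had VM236 at least 2-fold above them and 7 had both. The 12 widest gaps with VM231 above were mostly granule and macrophage genes, among them Prtn3, Elane, Fcnb, Ms4a3 and Camp. The list also holds Gcg, the glucagon precursor, at 119.8 CPM in VM231 and 0.271 CPM in VM236, against 0.408 CPM in A1 and 2.87 CPM in A3. Ociad2 had 196 CPM in VM231 and 1.51 CPM in VM236, against 1.15 CPM in A1 and 3.49 CPM in A3.

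The widest gaps with VM236 above VM231 mixed losses in VM231 with gains in VM236. Fcmr, the receptor for IgM on B cells, had 8.51 CPM in VM231 and 167 CPM in VM236, against 319 CPM in A1 and 323 CPM in A3, so both tumors lay below the controls. Dapl1, a transcript of naive T cells, had 0.296 CPM in VM231 and 21.3 CPM in VM236, against 31.6 CPM in A1 and 14.4 CPM in A3, with VM236 between the controls. Kcnj16, a potassium channel gene, had 0.770 CPM in VM231 and 44.1 CPM in VM236, against 3.41 CPM in A1 and 2.84 CPM in A3, and rose in VM236. Col14a1, a collagen gene, had 0.859 CPM in VM231 and 20.2 CPM in VM236, against 0.778 CPM in A1 and 1.04 CPM in A3. The rest of these 12 are Rapgef4, Igfbp4, Nid1, Hs3st2, Slc16a5, Fcer2a, Rtn1 and Chst3.

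The spleens of the same mice, which the 4-fold rule did not use, parted in the same direction for most of these genes. Of the 394 genes 279 (70.8%) were at least 2-fold higher in the VM231 spleen than in the VM236 spleen, against 19.8% of all tested genes, with a median log2 gap of 2.04. Of the 221 genes 121 (54.8%) were at least 2-fold lower in the VM231 spleen, against 18.9% of all tested genes, with a median of -1.20. Both tissues come from the same mice, so they do not count as separate animals. The cell division list summed to 3220 CPM in the VM231 spleen and 463 CPM in the VM236 spleen, against 433 CPM in A1, 396 CPM in A2 and 527 CPM in A3. Macrophage genes summed to 19400 CPM in the VM231 spleen and 6570 CPM in the VM236 spleen, against 2090 CPM in A1, 1770 CPM in A2 and 2160 CPM in A3. The median gene of that list differed between these spleens by 0.12 on the log2 scale, VM231 minus VM236. Lyz2, a lysozyme gene that neutrophils also express, gave much of the sums, with 14130 CPM in the VM231 spleen and 3278 CPM in the VM236 spleen, against 1406 CPM in A1, 1158 CPM in A2 and 1294 CPM in A3.

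Whether the tumor difference itself depends on the tissue was tested over all 10 CD4-CreERT2 libraries. No gene of 18529 passed, which is 0% higher and 0% lower in CD4+ cells, and the smallest edgeR adjusted p was 0.972. Without adjustment 232 genes were higher and 247 lower at p under 0.05, and DESeq2 called none. Keeping the mouse as a replicate block also gave 0 genes. Whether the difference depends on the Cre line was tested with the 7 CD4-Cre libraries of CD4+ cells over 19581 genes matched by symbol. One gene had a larger difference in CD4-CreERT2 (0.00511% of those tested) and none a smaller one (0%), with 1082 higher and 442 lower at an unadjusted p under 0.05 and 361 in all by DESeq2.

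That gene was Fpr1. It had 27.1 CPM in VM231 and 38.7 CPM in VM236, against 1.5 CPM in A1 and 3.78 CPM in A3, on the scaling of this larger fit. In the CD4-Cre line the tumors had 3.24, 2.58, 1.51 and 1.68 CPM, against 25.7, 26.2 and 46.5 CPM in the controls. The tumors were high in one line and low in the other with no overlap in either, and the difference between the lines was 7.49 ± 0.74 on the log2 scale (SE; edgeR adjusted p 0.0189). The controls also differed between the lines, and those of CD4-Cre lay near the CD4-CreERT2 tumors. Each line was deposited as its own kind of count table, so Cre line and set of libraries cannot be told apart. Leaving out A1, A3 or any of the 3 CD4-Cre controls ended the call. A tumor and a control of the CD4-Cre line both carry the name VM645, the labels do not say whether they come from one mouse, and the test took them as separate mice. Other myeloid genes had medians of the same opposite signs without a gene that passed. Macrophage genes had a median of 2.46 in CD4-CreERT2 and -2.43 in CD4-Cre, neutrophil genes 3.52 and -2.20, and erythroid genes 3.37 and -1.52. Cell division genes had 0.18 in CD4-CreERT2 and 1.14 in CD4-Cre, interferon-stimulated genes 0.99 and -0.67, and B cell genes -2.21 and -1.51. The CD4-CreERT2 medians average tumors that parted on some lists. Tumor by tumor against A1 and A3, neutrophil genes were at 6.69 in VM231 and 0.80 in VM236, and cell division genes at 1.32 and -1. Erythroid genes were alike, at 3.18 and 3.47. No member of these lists differed between the lines by the edgeR test.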

How the data were processed

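RNA of sorted CD4+ T cells was prepared with RNeasy Micro columns, amplified with SMART-Seq v4 and sequenced on a HiSeq from Nextera XT libraries, per the labels' protocols. There were no molecular identifiers, so intervals cover counting error only. The authors deposited raw read counts per gene, one table per library, per the file headers with gene coordinates and length. HISAT2 2.1.0, HTSeq 0.5.4 and mm10/GRCm38 are named in the submitters' processing notes. The annotation release and the use of strand are not given in the sources used here, so overlapping and near-identical genes are uncertain.

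Counts were tested with edgeR 4.0.16 (R 4.3.3, limma 3.58.1): filterByExpr, TMM, the quasi-likelihood F test, two-sided, Benjamini-Hochberg adjustment, threshold 0.05, prior count 2. Standard errors are the absolute log2 difference over the square root of F. The test script recovered seeded changes on simulated data. That check concerned the script, and power in these data is not reported here. Total counts of the 4 libraries ran between 27158848 and 36879923. Replicates are single mice, 2 a side. Same-numbered CD4+ and spleen libraries come from one animal, and their deviations from the group means correlated at 0.158 (VM231), 0.44 (VM236), 0.192 (A1) and 0.279 (A3). In the CD4-Cre tables of CD4+ cells rows that name no gene held between 33.6 and 46% of counts and were left out.

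Named genes are Vav1, Myo1f, Cd4, Gata3 and Mki67, 2 to 4 per list, the 12 non-overlapping genes of lowest p in each direction with mean log2 CPM of at least 3, and the 12 widest gaps between the tumors in each direction, leaving out gene models, immunoglobulin and receptor segments, ribosomal, mitochondrial and sex-marking genes. Further list members are named as examples, chosen after their values were seen. The comparison, the gene lists and the examples were chosen with earlier results of these data known. The 2-fold limit, the list counts in each tumor alone and the spleen look-up were chosen after seeing the data. Alternatives were RLE scaling, TMM without segment, globin and mitochondrial genes, no filter, DESeq2 1.42.0, all 10 CD4-CreERT2 libraries in the fit, the mouse as a replicate block, and leaving out each library. V gene shares have exact Clopper-Pearson 95% intervals. Some members of the lists are not reported here. V gene sequences come from GENCODE M21 and promoters from RefSeq.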

Additional observations from a re-analysis of the deposited data

Results flagged for a closer look

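One gene differed between the Cre lines by a test of the difference itself, though Cre line and set of libraries cannot be told apart. For Fpr1 the tumor minus control difference in CD4+ cells was larger in CD4-CreERT2 than in CD4-Cre by 7.49 on the log2 scale (edgeR adjusted p 0.0189, 1 gene of 19581). It was higher in 2 of 2 CD4-CreERT2 tumors and lower in 4 of 4 CD4-Cre tumors than in every control of the same line. The call is absent when A1, A3 or any CD4-Cre control is left out. The macrophage list moved with it, with a median of 2.46 in CD4-CreERT2 and -2.43 in CD4-Cre, and its part in the Fpr1 value was not tested.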

How the results depend on the processing

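With both tumors in one group the counts of 0 higher and 0 lower genes became 42 and 13 with no filter on low counts (27354 genes tested), 229 and 42 with DESeq2, and 1 and 0 with all 10 CD4-CreERT2 libraries in the fit. Leaving out 1 library gave 0 to 1902 higher and 0 to 1352 lower genes, with 1902 and 1352 without VM236, 265 and 109 without VM231, and 0 and 0 without A1 or A3. The cause was not tested, beyond the fits without a tumor holding 1 tumor library. The log2 difference turned for Gata3, -0.29 (without VM231) to 0.29 (without VM236), with -0.04 without A1, for Vav1, -0.20 (without VM236) to 0.10 (without VM231), and for Mki67, -1.02 (without VM231) to 1.13 (without VM236). The 1 gene whose difference depends on the Cre line became 153 with no filter and 361 with DESeq2, and 0 to 18 when 1 library was left out, the highest without VM231 and 0 without A1, A3 or a CD4-Cre control. The paired fit, with the mouse as a replicate block, kept the spleen count at 0, and it was run for that result alone, since the other comparisons use CD4+ libraries only. The gaps between the tumors of 394 and 221 genes became 150 and 74 at 8-fold, and 460 genes had VM236 above VM231 at a mean of at least 2 CPM. RLE scaling and TMM without segment, globin and mitochondrial genes kept these counts within 1.5 times. No alternative at a lower depth was run, so what depth limits was not measured.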

Other observations

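One κ light chain V gene took a large share of the counts in both controls. Igkv5-39 took 51.5% of immunoglobulin κ V counts in A1 and 40% in A3, whereas the most counted κ genes of the tumors were Igkv6-20 at 10% in VM231 and Igkv1-135 at 28.8% in VM236. Of heavy chain V counts the most counted gene took 7.76% in VM231 (Ighv14-4) and 27.5% in VM236 (Ighv14-2), against 18.5% in A1 (Ighv1-55) and 14.2% in A3 (Ighv9-3). Heavy chain V genes together gave 4590 CPM in VM231 and 2300 CPM in VM236, against 10700 CPM in A1 and 8760 CPM in A3. The IgM heavy chain gene Ighm had 13940 CPM in VM231 and 7167 CPM in VM236, against 44210 CPM in A1 and 37310 CPM in A3. The IgG1 gene Ighg1 ran the other way in VM231, at 2000 CPM in VM231 and 127 CPM in VM236, against 163 CPM in A1 and 42.9 CPM in A3. These genes belong to B and plasma cells, whose list sums were given with the lower genes.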
